A study of Danio rerio with 8 samples.

Results

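The 8 libraries of this study, made from sorted ventricular cells of adult zebrafish, fell into 4 in which the gene wt1a was abundant and 4 in which it was nearly absent, and this division did not follow the labelled sort. The libraries were chosen by their measured wt1a level. Those with more than 30 TPM of wt1a (ENSDARG00000031420, listed as WT1) were both libraries of pools 3 and 4, and those with less than 5 TPM were both libraries of pools 1 and 2, so that all 8 of 8 libraries had a side. TPM, the number of transcripts of a gene among all transcripts of a library on a fixed total, is a level corrected for transcript length. In the libraries labelled GFP-negative and then GFP-positive, wt1a had 2.42 and 1.15 TPM in pool 1, 1.42 and 2.59 in pool 2, 106.82 and 71.26 in pool 3, and 44.28 and 39.51 in pool 4. The GFP-positive library thus did not exceed the GFP-negative one in pools 1, 3 and 4. Whether labels or pool numbers of some libraries were exchanged cannot be seen from the table, so pool, shared hearts and sort are given throughout as labelled, and the tests of the labelled sort at the end rest on those labels. The values nearest to the limits were 2.59 TPM in the library labelled GFP-positive of pool 2 and 39.51 TPM in the library labelled GFP-positive of pool 4. The sides are called wt1a-low and wt1a-high below. Because measured wt1a set them, and because the question was put with earlier results of these data known, the differences between the sides are given as descriptions and carry no test.

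All fish carried the transgene Tg(-6.8wt1a:EGFP), in which sequence from upstream of wt1a drives the green fluorescent protein EGFP. They were 3 to 9 months old and untreated. Each pool of 3 to 5 ventricles was dissociated with enzymes and sorted into cells labelled wt1a+ (GFP-positive) and wt1a- (GFP-negative), which gave 2 libraries per pool. The 4 libraries of a side thus come from 2 sets of hearts, and the 2 libraries of a pool share their hearts. Where n = 4 is given below it counts libraries, not sets of hearts. As labelled, no pool has libraries on both sides. A difference between the sides therefore cannot be told apart from one between sets of hearts or their preparation. The protocol text also speaks of mCherry-positive cells of the ventricular apex, while titles and characteristics name GFP alone. A reporter driven by a fragment of a gene need not be active in the same cells as the gene.

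wt1a encodes a zinc finger transcription factor that is known as a marker of the epicardium, the mesothelial layer around the heart. Epicardial cells signal to the muscle below them and give rise to fibroblasts and mural cells, whereas the remaining ventricle is made of cardiomyocytes, the endocardium and vessels that line its spaces, and blood. Surface receptors, secreted ligands, transporters and metabolic enzymes are used unequally by these cell types, and the account below follows such genes by their roles.

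Across genes, the libraries of a side resembled each other whatever their pool. The correlation of log2 levels between the 2 libraries of a pool was 0.812 to 0.902, between libraries of different pools on one side 0.804 to 0.928, and between the sides 0.645 to 0.722. The depth is unknown, since TPM keeps none. Between 12332 and 13432 genes reached 1 TPM in the wt1a-low and between 13737 and 14783 in the wt1a-high libraries. Of all TPM, the top 50 identifiers took 74.4% to 80.5% on the wt1a-low side and 45.2% to 66.3% on the wt1a-high side, and the 13 mitochondrial symbols 10.3% to 14.2% and 2.13% to 5.06%.

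In TPM as deposited, marker sums of several cell types moved with the sides. Those of epicardium, macrophages, neutrophils, thrombocytes and lymphocytes overlapped between the sides on that scale. The summed TPM of the 14 cardiomyocyte identifiers was 18502 to 24958 in the wt1a-low libraries and 1399 to 4357 in the wt1a-high libraries, where 1 of them, TNNT2 (cardiac troponin T), was listed at 0. The sum was 179.7 to 331 against 18.7 to 39.8 for 7 endothelial markers, 299 to 555 against 99.3 to 181 for 4 endocardial markers, and 649 to 1510.3 against 11.6 to 35.5 for 5 erythrocyte markers. It was 177 to 342 against 4145 to 9242 for 11 fibroblast markers, 63.5 to 90.0 against 437 to 726 for 7 smooth muscle and pericyte markers, and 1201 to 2119 against 1758 to 3495 for 9 epicardial markers. For the remaining types it was 175 to 285 against 119.98 to 223 for macrophages (11 identifiers), 3.07 to 15.98 against 0.08 to 4.96 for neutrophils (2), 5.13 to 8.36 against 3.07 to 5.71 for thrombocytes (3), 2.39 to 6.25 against 0.61 to 30.86 for lymphocytes (4), and 1.17 to 3.19 against 11.2 to 33.4 for neural and Schwann cells (5). By the rule for calls given below, 12 of 12 cardiomyocyte and 7 of 7 endothelial markers tested were lower and 10 of 11 fibroblast markers higher in the wt1a-high libraries, while of 9 epicardial markers 4 were higher and 2 lower. That rule called 8.63% of all genes tested higher and 12.2% lower. The epicardial markers include wt1a, which set the sides, so its call, 1 of the 4, and its part of their sum are no finding. Of 6 smooth muscle and pericyte markers tested 2 were higher and 1 lower, and lower were 2 of 4 endocardial, 3 of 4 erythrocyte, 2 of 5 macrophage and 1 of 1 neutrophil markers, with none of these higher. Of 2 neural and Schwann markers tested 1 was higher, and the 1 thrombocyte and the 1 lymphocyte marker tested were not called. The sums are of TPM as deposited, while the divisors used for scaling were 0.603 to 0.818 in the wt1a-low and 1.21 to 1.89 in the wt1a-high libraries. Dividing by these raises the wt1a-low and lowers the wt1a-high sums. No sums were compared on the scaled values, so an overlap as deposited need not hold there. Within the endocardial sum SPOCK3 alone had 159.7 to 365 against 3.98 to 34.3 TPM, and cdh5 is in both the endothelial and the endocardial list. The marker identifiers listed at 0 in all libraries of a side were, besides TNNT2, those of itga2b, cd4-1, ZAP70 and MFAP4 on the wt1a-high side and of ELAVL3 and MFAP4 on the wt1a-low side. In libraries made from many cells, fewer cells of a type and less RNA of a gene per cell cannot be told apart, and the part of these markers in each difference below was not tested.

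The difference between the sides was measured for the 13877 of 31388 identifiers that reached 1 TPM in 4 or more libraries. It is a log2 difference, wt1a-high minus wt1a-low, of scaled TPM plus 1, with the labelled sort as a covariate. A gene was called when all 4 libraries of a side lay above all 4 of the other on the scaled values and the log2 difference was at least 1. By this rule 1197 genes were called higher and 1697 lower in the wt1a-high libraries, that is 8.63% and 12.2% of those tested, the shares against which each list below stands. These shares depend on the scaling: with the TPM as deposited 4088 were called higher and 807 lower, so that the higher ones made up 83.5% of the calls instead of 41.4%. The median of all genes then stood at 0.80 on the log2 scale, against -0.03 with scaling, and the differences below are relative to the scaled centre. TPM values in the text are as deposited. With a pseudocount of 5 instead of 1 the calls of EPHB2, ITGB6, CADM4, nectin3b, GJA5, tead1a, slc2a11l, p2rx7, RPIA, HGD, NR2C2, nr1d2a, raraa, NR1I2, phc1, PHLDA3 and mmrn2b were lost.

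**Figure D1:**
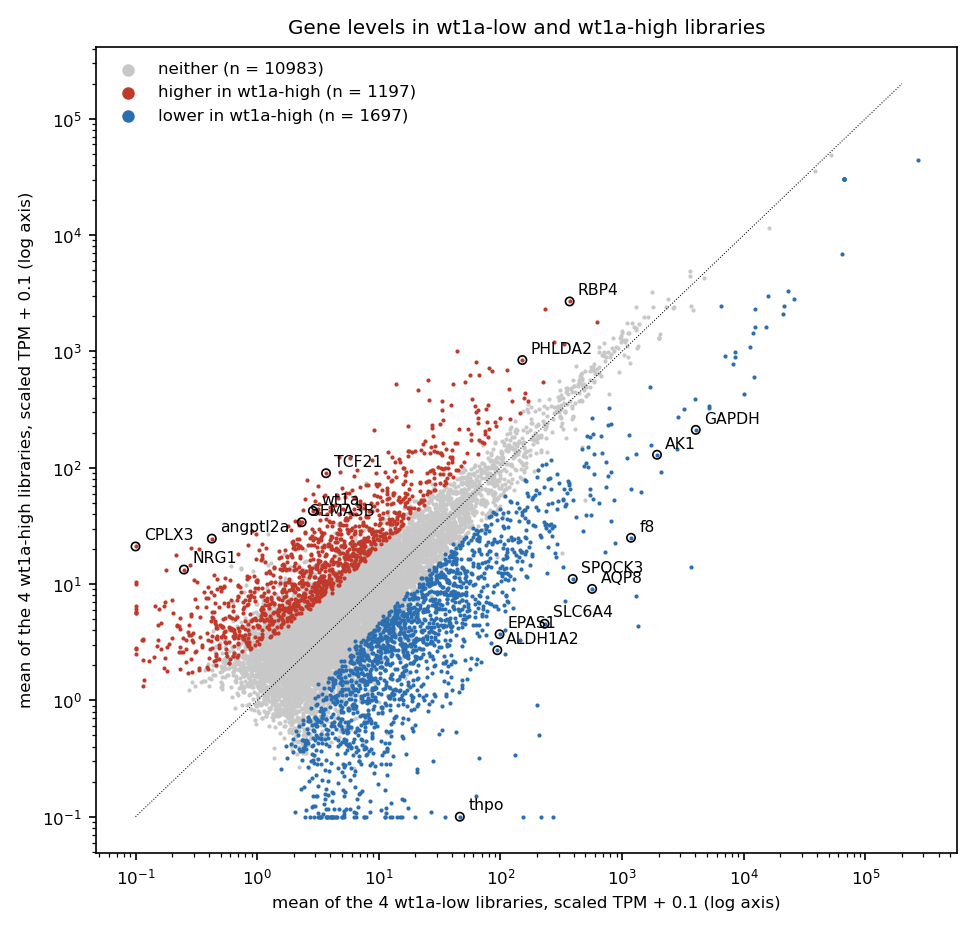
Mean level of each of 13877 genes in the 4 wt1a-low libraries (horizontal) and the 4 wt1a-high libraries (vertical), in scaled TPM plus 0.1 on log axes, with each point a gene. Red points are the 1197 genes called higher and blue points the 1697 called lower in the wt1a-high libraries. Circles mark genes described in the text. RBP4 and TCF21 lie above the dotted line of equality, and GAPDH, AQP8 and thpo lie below it.

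Epicardial markers were called in both directions, as given above, with ALDH1A2 at -4.74. Of the transcription factors among them, wt1b (ENSDARG00000007990), the paralog of wt1a, had 3.44 to 6.78 TPM in the wt1a-low and 48.3 to 60.03 in the wt1a-high libraries, and TCF21 (ENSDARG00000036869), a factor of epicardial cells and fibroblasts, had 1.08 to 3.43 and 84.3 to 212. The log2 differences were 2.27, 4.37 and, for wt1a itself, 3.55. wt1a averaged 1.90 ± 0.72 TPM (SD, n = 4) in the wt1a-low libraries and 65.5 ± 30.91 (SD, n = 4) in the wt1a-high libraries, and as the gene that set the sides its levels are no finding.

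Genes of guidance signalling, in which secreted or tethered ligands steer cells and vessels through receptors of neighbouring cells, lay at both ends. Of 68 tested among 91 listed, 16 were called higher (23.5%) and 15 lower (22.1%), with a median difference of 0.28, against 28 and 7 with the TPM as deposited. SEMA3B (ENSDARG00000011672), a secreted semaphorin, had 0.62, 1.84, 1.52 and 2.10 TPM in pool 1 (labelled GFP-negative, then GFP-positive) and pool 2, and 59.8, 58.6, 34.7 and 47.2 in those of pools 3 and 4 in the same order. No library of either side came near the other side, and the difference was 3.49 on the log2 scale, with means of 1.52 ± 0.65 and 50.1 ± 11.7 TPM (SD, n = 4 each). EFNB2 (ENSDARG00000020164), a membrane-bound ephrin, had 2.08 to 3.16 TPM in the wt1a-low and 46.7 to 87.5 in the wt1a-high libraries, and EPHB2 (ENSDARG00000021539), a receptor kinase for B-type ephrins, 0.34 to 0.64 and 6.02 to 12.9. A second identifier of EFNB2 (ENSDARG00000074050) was called lower, with 5.00 to 8.66 TPM in the wt1a-low and 0 to 6.19 in the wt1a-high libraries, values that overlap as deposited. PLXNA3, a plexin that acts as semaphorin receptor, had 0.16 to 0.66 against 10.4 to 19.1 TPM.

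Other semaphorins had the reverse arrangement. sema3gb (ENSDARG00000013607) had 34.9, 17.5, 56.2 and 29.4 TPM in the wt1a-low libraries, in the order used above, and 4.35, 0.61, 1.56 and 0.87 in the wt1a-high libraries, a difference of -4.52. The sides did not overlap, and the highest of the wt1a-high values was in the library labelled GFP-negative of pool 3. SEMA3A and sema3aa, listed under separate identifiers, had 12.3 to 40.6 and 9.00 to 19.6 TPM in the wt1a-low libraries against 0 to 1.15 and 0 to 1.75. NTN1 (ENSDARG00000022531), encoding netrin-1, had 7.22 to 15.04 against 0 to 3.83 TPM, while a second identifier (ENSDARG00000105112) had 5.79 to 15.7 against 55.4 to 143.7 and was called higher. Members of a single family of secreted ligands, the class 3 semaphorins, were therefore called in both directions, with SEMA3B, SEMA3C and SEMA3F higher and sema3gb, SEMA3A and sema3aa lower in the wt1a-high libraries.

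Receptors coupled to G proteins, their ligands and regulators such as RGS4 were called lower more often than higher. Of 72 tested among 172 listed, 16 were called lower (22.2%) and 8 higher (11.1%), with a median of -0.26. Lower calls were also the more frequent over all genes, at 12.2% against 8.63%. In this list 19 were called higher and 10 lower with the TPM as deposited. S1PR2 (ENSDARG00000036548), a receptor for the lipid mediator sphingosine-1-phosphate, had 1.85, 2.48, 2.51 and 4.45 TPM in the wt1a-low libraries and 79.2, 80.2, 23.9 and 29.00 in the wt1a-high libraries, and both libraries of pool 3 lay above both of pool 4. Its log2 difference was 2.72. spns2, the transporter that releases sphingosine-1-phosphate from endothelial cells, had 7.85 to 14.8 TPM in the wt1a-low and 0.09 to 1.47 in the wt1a-high libraries (-3.44), so the transporter and this receptor stood on opposite sides. The apelin system showed the same arrangement. The receptor gene aplnra (ENSDARG00000002172) had 2.89 to 5.53 TPM against 21.8 to 61.7 and a difference of 1.62, whereas APLN (ENSDARG00000053279), its peptide ligand, had 30.5 to 54.3 against 6.17 to 12.2 and a difference of -2.88.

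RGS4 and rgs5b, which encode proteins that shorten G protein signals, had 0.47 to 1.96 and 11.5 to 27.6 TPM in the wt1a-low libraries and 18.2 to 47.7 and 104 to 332 in the wt1a-high libraries. ADORA2A, a receptor for adenosine, had 3.51 to 11.6 against 0 to 3.49 TPM, and NT5E (ENSDARG00000071017), the surface enzyme that makes adenosine from AMP, had 5.29 to 8.27 against 60.4 to 107. These too were called in opposite directions, at -2.58 and 2.35. ADGRL4, an adhesion receptor known from endothelium, had 8.88 to 16.97 against 0.05 to 3.05 TPM, and the orphan receptor gene GPRC5C 3.52 to 8.84 against 0 to 2.51. Endothelial markers were lower in the same libraries.

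**Figure D2:**
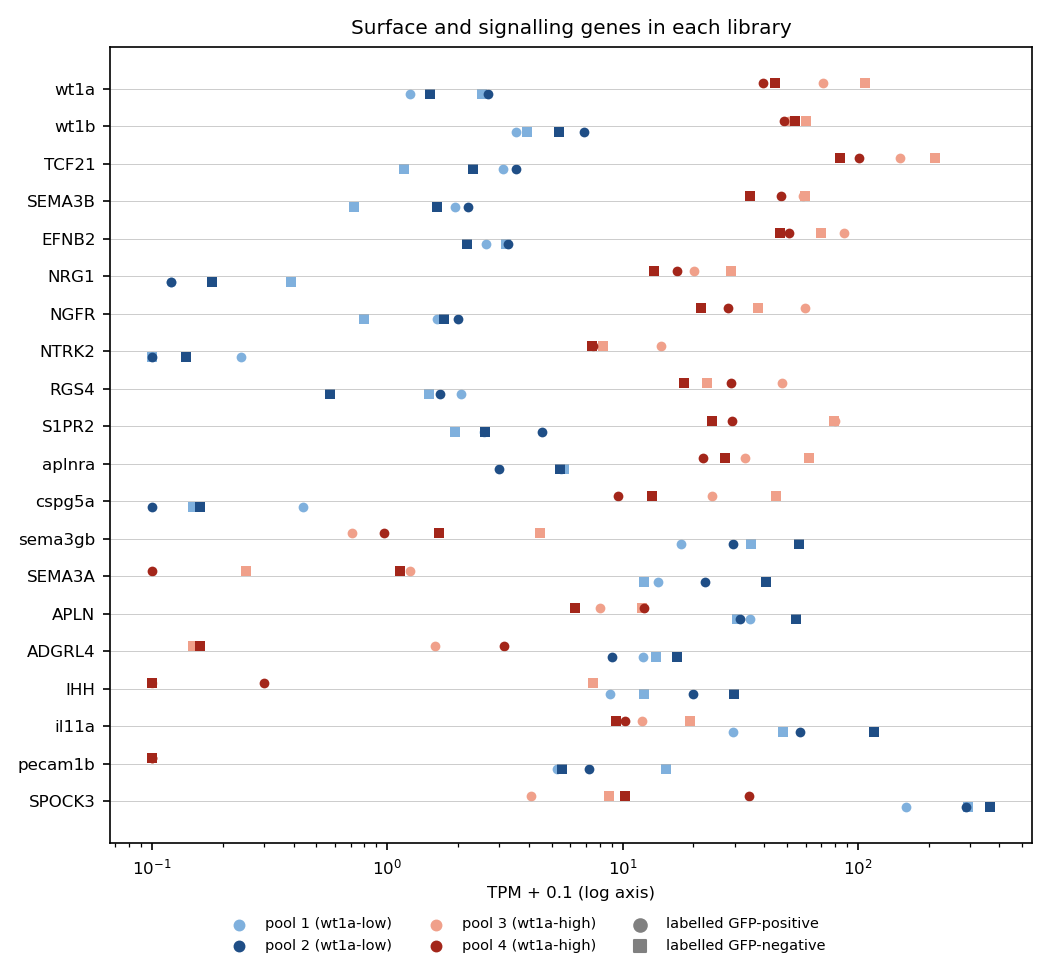
TPM plus 0.1 on a log axis for 20 surface and signalling genes in each of the 8 libraries. Blue points are the libraries of pools 1 and 2 (wt1a-low), red points those of pools 3 and 4 (wt1a-high), circles are labelled GFP-positive and squares GFP-negative. For SEMA3B all red points lie at 34.7 TPM or more and all blue points at 2.10 or less, and for sema3gb the order is reversed; all 4 red points of pecam1b lie at 0.

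Among receptors and ligands of cytokine, neurotrophin and growth factor signalling, 16 of 65 tested (122 listed) were called higher (24.6%) and 10 lower (15.4%), with a median of 0.07 that turned to -0.04 when pool 3's library labelled GFP-negative was left out. As deposited, TPM gave 28 calls higher and 4 lower. NRG1 (ENSDARG00000104314), encoding the growth factor neuregulin 1, which acts on cardiomyocytes through ErbB receptors, had 0.29, 0.02, 0.08 and 0.02 TPM in the wt1a-low libraries and 28.93, 20, 13.6 and 16.9 in the wt1a-high libraries. Its means were 0.10 ± 0.13 and 19.8 ± 6.61 TPM (SD, n = 4 each), a difference of 3.63. ERBB4 (ENSDARG00000090408), a neuregulin receptor, had 3.95 to 6.99 TPM against 0.30 to 3.43, a difference of -2.53. NRG1 and this identifier of ERBB4, 1 of 3 with that symbol, were thus highest on opposite sides. The other identifiers of ERBB4 and other ErbB receptors are not described here. The neurotrophin receptor genes NGFR (ENSDARG00000088708) and NTRK2 had 0.70 to 1.89 and 0 to 0.14 TPM in the wt1a-low and 21.6 to 59.3 and 7.29 to 14.4 in the wt1a-high libraries. The summed TPM of neural and Schwann cell markers was also higher there, but of the 2 such markers tested only 1 was called higher. IL17RD, a membrane protein that damps FGF signalling, had 0 to 0.48 against 8.68 to 14.7 TPM.

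Of the called genes lower in the wt1a-high libraries, il11a (ENSDARG00000037859), an interleukin of the IL-6 family, had 47.8, 29.5, 116 and 56.7 TPM in the wt1a-low libraries and 19.2, 11.98, 9.28 and 10.1 in the wt1a-high libraries. gfra3, a co-receptor for factors related to GDNF, had 11.8 to 24.1 against 1.76 to 10.98 TPM and tnfrsf9b, a TNF receptor family member, 3.65 to 10.1 against 0 to 4.05, a call that was lost with the TPM as deposited. In the Hedgehog and Hippo list 2 of 48 tested (71 listed) were called higher (4.17%) and 3 lower (6.25%), at a median of 0.08, against 23 and 2 with the TPM as deposited. IHH, encoding the ligand Indian hedgehog, had 8.76 to 29.6 TPM against 0 to 7.38; the 7.38 TPM were in the library labelled GFP-negative of pool 3, and the other 3 held at most 0.20. SCUBE1, a secreted protein with EGF repeats, had 29.8 to 54.3 against 248 to 431 TPM and AMOTL2, a regulator of the Hippo effector YAP, 4.62 to 7.37 against 40.1 to 63.1. ccn1l2, a matricellular CCN family member, and tead1a, a DNA-binding partner of YAP, had 15.9 to 38.9 and 5.12 to 9.63 against 6.49 to 9.70 and 2.28 to 6.08; the call of tead1a was lost with the TPM as deposited.

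Adhesion molecules were called lower in 17 of 72 tested (23.6%; 118 listed) and higher in 10 (13.9%), at a median of 0.07 that turned to -0.02 when pool 3's library labelled GFP-negative was left out. As deposited, TPM gave 27 calls higher and 10 lower. The endothelial adhesion gene pecam1b (ENSDARG00000103020) had 15.2, 5.19, 5.44 and 7.08 TPM in the wt1a-low libraries and was listed at 0 in all 4 wt1a-high libraries, and its paralog pecam1a had 3.78 to 8.49 against 0 to 2.04. cd9a, a tetraspanin, had 9.24 to 15.5 against 0 to 4.65 TPM and MCAM 9.19 to 22.9 against 0.81 to 13.5, where the sides overlap in deposited TPM. The integrin subunit genes itgb7 and ITGB6 had 0.49 to 1.66 and 0 to 0.17 TPM in the wt1a-low and 16.7 to 31.5 and 2.05 to 13.1 in the wt1a-high libraries. CADM4 and nectin3b, adhesion molecules of the immunoglobulin family, had 0.02 to 1.54 and 0 to 1.47 against 7.26 to 11.4 and 4.40 to 16.9.

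Junction genes were called higher in 8 of 52 tested (15.4%; 95 listed) and lower in 7 (13.5%), at a median of 0.27. Over all genes the shares were 8.63% higher and 12.2% lower, and the list's lower share was near the latter. Its counts became 27 higher and 3 lower with the TPM as deposited. At a mean of at least 5 TPM, the 4 largest differences on the wt1a-high side were of these genes: the polarity protein gene pard3aa (ENSDARG00000101358) had 0.13, 2.28, 0.50 and 1.79 TPM in the wt1a-low and 41.78, 21.4, 29.4 and 12.8 in the wt1a-high libraries, and cingulin (cgna), a claudin (cldn23l) and a desmoglein (dsg2.1) had at most 2.85, 1.5 and 1.18 TPM against at least 17.3, 8.19 and 6.63. The connexin gene GJA1 (ENSDARG00000041799), whose product forms gap junctions, had 9.60 to 19.3 TPM in the wt1a-low and 0.72 to 8.44 in the wt1a-high libraries, and the endothelial claudin gene CLDN5 (ENSDARG00000014059) 2.75 to 7.31 against 0 to 1.75. GJA5 (ENSDARG00000040065) and CGNL1 were called lower as well, at -1.68 and -1.48, but not with the TPM as deposited.

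Proteoglycans, surface and matrix proteins that carry sulfated sugar chains, and the enzymes of those chains were called higher in 15 of 67 tested (22.4%; 101 listed) and lower in 4 (5.97%), with 48 in neither direction and a median of 0.63. On the scale as deposited 36 were called higher and 2 lower. Of 20 core proteins tested 7 were called higher and 2 lower, and of 47 enzymes and transporters 8 and 2, with 37 in neither direction. cspg5a (ENSDARG00000069981), a transmembrane chondroitin sulfate proteoglycan, had 0.05, 0.34, 0.06 and 0 TPM in the wt1a-low libraries and 44.8, 24.02, 13.3 and 9.47 in the wt1a-high libraries. PODN and DCN, encoding the small leucine-rich proteoglycans podocan and decorin, had 0.15 to 6.84 and 29.02 to 64.4 against 38.7 to 125 and 679 to 1394 TPM, and fibroblast markers, DCN among them, were higher in the same libraries. SULF1, an extracellular enzyme that removes sulfate groups from heparan sulfate, had 1.07 to 5.78 against 43.2 to 121 TPM, a difference of 3.29. SPOCK3 (ENSDARG00000070266), a secreted proteoglycan, went the other way with 292, 159.7, 365 and 287 TPM in the wt1a-low and 8.63, 3.98, 10.2 and 34.3 in the wt1a-high libraries, a difference of -5.50. It is one of the 4 endocardial markers.

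**Figure D3:**
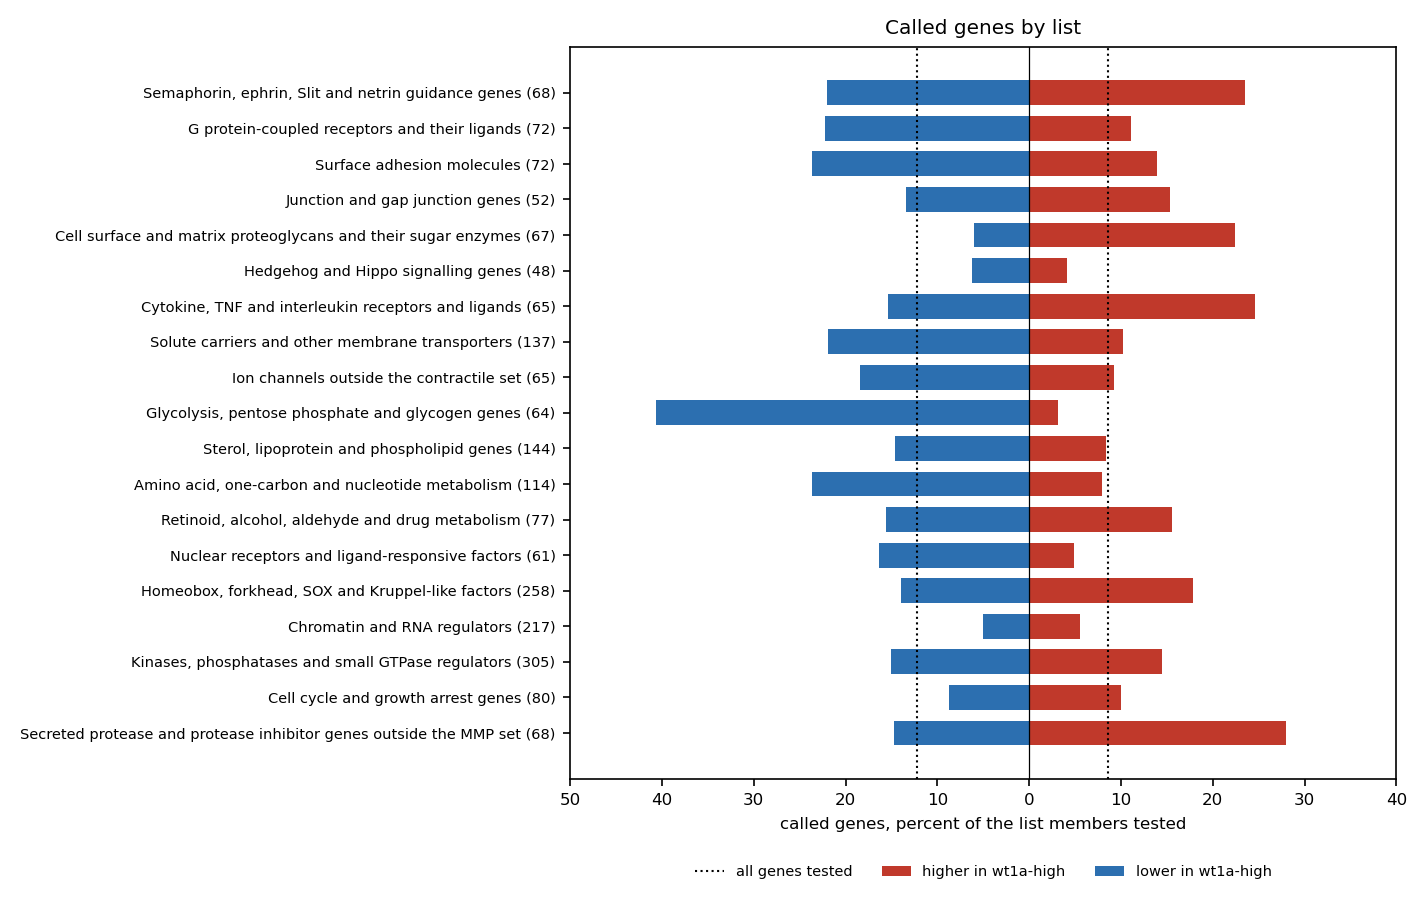
Share of tested members of each of 19 gene lists that were called higher (red, to the right) or lower (blue, to the left) in the wt1a-high libraries, in percent; the number of members tested is in parentheses and the dotted lines give 8.63% and 12.2%, the shares over all genes. The glycolysis list has the longest bar to the left, at 40.6%, and the list of secreted proteases the longest to the right, at 27.9%.

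Solute carriers, ABC transporters and aquaporins were called lower in 30 of 137 tested (21.9%; 266 listed) and higher in 14 (10.2%), at a median of -0.10. On the scale as deposited 36 were called higher and 15 lower. AQP8 (ENSDARG00000045141), an aquaporin that passes water across membranes, had 365, 374, 491 and 338 TPM in the wt1a-low libraries, in the order used above, and 8.17, 1.27, 8.40 and 28.8 in the wt1a-high libraries. The means were 392.25 ± 67.6 and 11.7 ± 11.9 TPM (SD, n = 4 each) and the difference -6.42, and within the wt1a-high side the value of the library labelled GFP-positive of pool 4 was the highest. SLC6A4 (ENSDARG00000061165), the serotonin transporter, had 140.2, 138, 212 and 152 TPM and 0.18, 4.63, 1.72 and 16.2, a difference of -6.05, with the highest wt1a-high value in the library labelled GFP-positive of pool 4. AQP1 (ENSDARG00000023713) and the anion exchanger SLC4A1 (ENSDARG00000012881), both known from red cells, had 4.90 to 22.2 and 10.8 to 19.2 against 0 to 0.26 and 0.13 to 2.67 TPM. Erythrocyte markers, SLC4A1 among them, were lower in the same libraries. Among carriers called higher, the amino acid carriers SLC7A5 and SLC1A3 (ENSDARG00000104431) had 0 to 1.11 and 0 to 2.22 against 3.78 to 12.7 and 7.01 to 23.3 TPM, and SLCO1C1, an organic anion carrier, 0 to 0.58 against 2.04 to 42.7. The sugar carrier gene slc2a11l had 0 to 0.41 against 2.32 to 16.7 TPM.

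Ion channels outside the contractile apparatus, listed together with sodium pump subunits, were called lower in 12 of 65 tested (18.5%; 163 listed) and higher in 6 (9.23%), at a median of -0.04 that became 0.0003 when pool 3's library labelled GFP-negative was left out. With the TPM as deposited 20 were called higher and 3 lower. The polycystins pkd1a and PKD2, which form a channel complex linked to cilia, were called higher together, with 6.77 to 10.8 and 10.8 to 17.8 TPM in the wt1a-low and 48.6 to 83.3 and 45.2 to 97.9 in the wt1a-high libraries. The acid-sensing channel gene asic1b had 0.04 to 0.92 against 6.91 to 14.3 TPM and the ATP-gated channel gene p2rx7 0.85 to 2.37 against 8.10 to 11.4. The potassium channel gene kcnj14 had 16.1 to 21.6 against 0.32 to 4.70 TPM and ATP1B1 (ENSDARG00000013144), a subunit of the sodium pump, 185 to 343 against 71.7 to 149. atp1b3b and kcnk1a were called lower with scaling but not with the TPM as deposited.

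Enzymes of glycolysis, the pentose phosphate path and glycogen were called lower in 26 of 64 tested (40.6%; 87 listed) and higher in 2 (3.12%), at a median of -0.73. GAPDH (ENSDARG00000043457) had 2264, 2669, 3218 and 2984 TPM in the wt1a-low and 424, 99.8, 391 and 285 in the wt1a-high libraries, and ALDOA (ENSDARG00000034470) 160.0 to 238 against 9.28 to 31.5. The isomerase GPI (ENSDARG00000103826) and the mutase PGAM2 had 15 to 21.98 and 65.6 to 88.2 against 0 to 2.75 and 5.54 to 12.4 TPM. Identifiers of HK1, PFKP, TPI1, ENO1, ENO3, PKM, LDHA and LDHB along the path from glucose to lactate, and of PYGM, PYGL and GYS1 in glycogen turnover, were called lower too. With the TPM as deposited the list's median was 0.07, which is below the median of all genes on that scale, and 17 of its members were called lower and 11 higher. Several of these genes are strongly used in muscle, and cardiomyocyte markers were lower in the same libraries. The exceptions were PGM5, a relative of phosphoglucomutase found at adhesion sites, with 0.30 to 6.89 against 14.6 to 52.2 TPM, and RPIA, whose call was lost under median-of-ratios scaling and when pool 3's library labelled GFP-negative was left out.

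Amino acid, one-carbon and nucleotide enzymes were called lower in 27 of 114 tested (23.7%; 154 listed) and higher in 9 (7.89%), at a median of -0.27. With the TPM as deposited the counts turned to 36 higher and 14 lower. AK1 (ENSDARG00000001950), adenylate kinase, which keeps adenine nucleotides in balance in muscle, had 1394, 1166, 1237 and 1504 TPM in the wt1a-low and 343, 79.6, 185 and 159.9 in the wt1a-high libraries. The enzymes ADSL of purine synthesis, GOT2 of the malate-aspartate shuttle and CTH (ENSDARG00000032206) of cysteine synthesis had 29.5 to 43.7, 71.2 to 94.8 and 7.89 to 15.3 TPM against 2.02 to 14.1, 8.66 to 28.8 and 0 to 3.84. Besides NT5E, the glutamine synthetase gene GLUL (ENSDARG00000099776) was called higher, with 21.4, 19.1, 17.4 and 28.2 TPM against 153, 221, 248 and 136, and so were AMPD2 (ENSDARG00000029952), which deaminates AMP, and HGD of tyrosine breakdown, at 1.86 and 1.76.

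In the lipid metabolism list, which also holds angiopoietin-like genes, 21 of 144 tested (14.6%; 226 listed) were called lower and 12 higher (8.33%), at a median of -0.03. These shares were near the 12.2% and 8.63% of all genes. The list was described by 3 roles. With the TPM as deposited 35 were called higher and 11 lower. Sterol synthesis and uptake genes had a median of 0.38 with 4 of 47 called higher and 2 lower, lipoprotein and fatty acid genes -0.30 with 4 of 42 and 10, and enzymes of prostaglandins and sphingolipids -0.18 with 4 of 55 and 9. angptl2a (ENSDARG00000024030), a secreted angiopoietin-like protein, had 0.04, 0.71, 0 and 0.04 TPM in the wt1a-low libraries and 43.3, 37.1, 17.8 and 45.05 in the wt1a-high libraries, a difference of 4.28. Its relative ANGPTL1 had 0.98 to 2.63 against 27.00 to 56.4 TPM, the lipoprotein clusterin (CLU) 9.25 to 22.2 against 264 to 428, and the endocytic receptor gene LRP1 (ENSDARG00000097827) 2.61 to 7.48 against 52.2 to 94.8. On the wt1a-low side stood both identifiers of PTGS2, the inducible cyclooxygenase that starts prostaglandin synthesis. ENSDARG00000004539 had 73.3, 64.98, 131 and 52.7 TPM in the wt1a-low and 17.1, 6.97, 6.93 and 11.1 in the wt1a-high libraries, and ENSDARG00000010276 had 26.2, 33.6, 59.2 and 25.9 and 3.99, 6.69, 5.15 and 8.87. In the wt1a-low libraries the library labelled GFP-negative of pool 2 was highest for both. LPL (ENSDARG00000087697), the lipase that frees fatty acids from circulating lipoproteins, had 70.2 to 142 against 9.92 to 29.3 TPM.

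Retinoid, aldehyde and drug metabolism was evenly divided, with 12 of 77 tested (132 listed) called in each direction (15.6% each) and a median of 0.32. With the TPM as deposited 33 were higher and 7 lower. Retinoic acid is a signal made from vitamin A by dehydrogenases and carried by binding proteins. RBP4, the retinol carrier, averaged 247 ± 80.6 TPM (SD, n = 4) in the wt1a-low and 4015 ± 1211 (SD, n = 4) in the wt1a-high libraries, and CRABP2 (ENSDARG00000073978), which carries retinoic acid inside cells, had 1.93, 5.37, 1.02 and 3.00 against 36.8, 49.8, 20.1 and 39.2. The dehydrogenase gene DHRS9 had 0 to 1.90 against 6.76 to 18.6 TPM, and the receptor gene raraa 2.48 to 4.64 against 8.98 to 20.8; the latter was called at 1.00, and not under median-of-ratios scaling or when pool 3's library labelled GFP-negative was left out. ALDH1A2 (ENSDARG00000053493), which makes retinoic acid and is 1 of the epicardial markers, averaged 67.9 ± 40.1 TPM (SD, n = 4) in the wt1a-low and 3.59 ± 1.89 (SD, n = 4) in the wt1a-high libraries. This enzyme and the carriers RBP4 and CRABP2 were thus highest on opposite sides, while the dehydrogenase gene DHRS9 was higher on the side of the carriers. CYP1B1, a cytochrome P450, and sult2st1, a sulfotransferase, had 14.1 to 20.3 and 20.8 to 25.7 against 0.34 to 6.71 and 0.76 to 6.47 TPM. Of the carbonic anhydrases, CA8 had 0 to 0.81 against 10.4 to 16.6 TPM, and cahz, known from zebrafish red cells, 13.7 to 25.6 against 0 to 0.07.

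**Figure D4:**
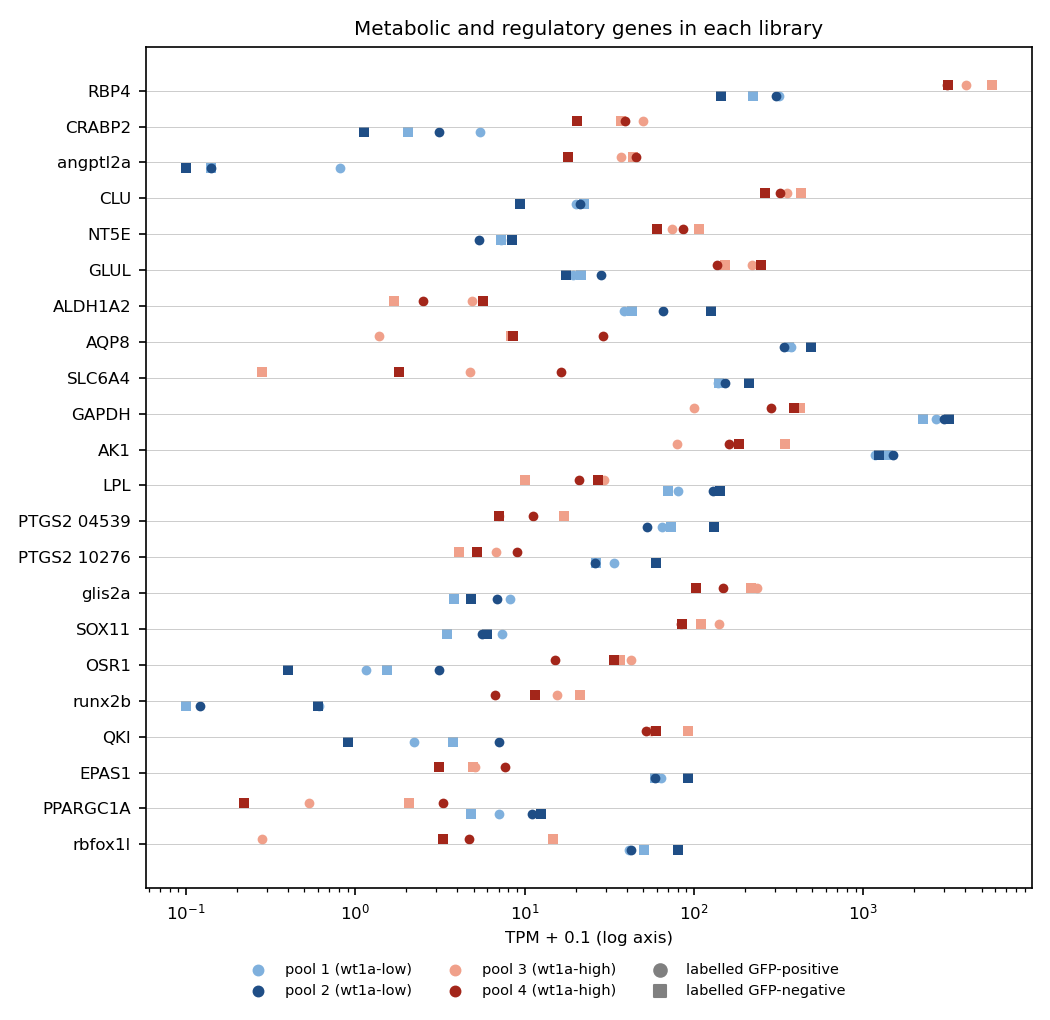
TPM plus 0.1 on a log axis for 22 metabolic and regulatory genes in each of the 8 libraries, with colours by pool and symbols by labelled sort. RBP4, CRABP2 and GLUL have all red (wt1a-high) points to the right of all blue (wt1a-low) points, and ALDH1A2, AQP8, SLC6A4, GAPDH and EPAS1 have them all to the left.

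Listed genes of the homeobox, forkhead, SOX, Kruppel-like and other factor families, with the LIM-domain proteins FHL1 and FHL2 among them, were called higher in 46 of 258 tested (17.8%; 493 listed) and lower in 36 (13.95%), at a median of 0.13. The shares over all genes were 8.63% and 12.2%. This list's counts became 115 higher and 15 lower with the TPM as deposited. glis2a (ENSDARG00000078388), a zinc finger factor related to the Gli proteins, had 3.74, 8.05, 4.72 and 6.8 TPM in the wt1a-low and 216, 236, 103 and 149 in the wt1a-high libraries, with means of 5.83 ± 1.96 and 176 ± 61.5 (SD, n = 4 each) and a difference of 3.66. SOX11 (ENSDARG00000095743), a factor of progenitor cells in several tissues, had 3.38, 7.26, 5.92 and 5.51 against 110.2, 140.1, 85.2 and 83.1. OSR1, a factor of the lateral and intermediate mesoderm, and runx2b, which in mammals directs bone formation, had 0.30 to 3.00 and 0 to 0.51 against 15.04 to 42.2 and 6.57 to 21.1 TPM. EPAS1 (ENSDARG00000057671), a hypoxia-inducible factor subunit prominent in endothelium, had 58.98, 63.3, 92.04 and 59.05 TPM in the wt1a-low and 4.83, 5.00, 3.01 and 7.57 in the wt1a-high libraries, a difference of -4.49. FHL1 (ENSDARG00000071498) and FHL2 (ENSDARG00000003991), LIM-domain proteins of muscle, had 176 to 218 and 10.7 to 14.6 against 16.5 to 34.2 and 0 to 3.71 TPM, and the homeobox gene IRX5 7.55 to 12.01 against 0 to 2.74.

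Nuclear receptors and their cofactors were called lower in 10 of 61 tested (16.4%; 92 listed) and higher in 3 (4.92%), at a median of -0.16; with the TPM as deposited 14 were called higher and 1 lower. PPARGC1A (ENSDARG00000067829), the coactivator that drives mitochondrial biogenesis, had 4.69, 6.91, 12.4 and 10.98 TPM in the wt1a-low and 1.96, 0.43, 0.12 and 3.17 in the wt1a-high libraries, and mitochondrial symbols took a smaller share of the TPM there. NR4A1, NR1I2 and NR5A1 (ENSDARG00000103176) were called lower at -1.91, -1.91 and -1.80, and none of the 3 with the TPM as deposited. nr1d2a, a repressor of the circadian clock, had 19.6 to 31.4 TPM against 96.6 to 134, and NR2C2, an orphan receptor, 0.86 to 2.21 against 5.54 to 9.23, with differences near the limit of 1.

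Chromatin and RNA regulators were called in 12 of 217 tested (256 listed) higher (5.53%) and in 11 lower (5.07%), at a median of 0.04. Both shares were below those of all genes, 8.63% and 12.2%. The near balance held with scaling alone, since the TPM as deposited gave 85 regulators higher and 4 lower. QKI (ENSDARG00000002026), an RNA-binding regulator of splicing, had 3.66, 2.11, 0.80 and 6.90 TPM in the wt1a-low and 92.4, 55.8, 59.7 and 51.8 in the wt1a-high libraries. phc2b and phc1, subunits of the Polycomb complex PRC1, had 1.95 to 4.17 and 0.11 to 0.96 against 40.2 to 59.5 and 2.23 to 9.28 TPM, and the splicing repressor PTBP1 (ENSDARG00000019362) 3.64 to 7.17 against 22.1 to 51.8. The muscle splicing factor gene rbfox1l (ENSDARG00000021184) had 41.2 to 80.6 against 0.18 to 14.5 TPM, RBPMS2 (ENSDARG00000045930) 27.7 to 43.7 against 1.86 to 12.3, and the muscle methyltransferase gene SMYD1 (ENSDARG00000091253) 12.3 to 24.2 against 0.13 to 6.43. The call of HMGB3 (ENSDARG00000006408), a chromatin protein with 11.9 to 27.9 against 0.43 to 12.1 TPM, was lost with the TPM as deposited.

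Kinases, phosphatases and regulators of small GTPases were called in both directions at like shares, 44 of 305 tested (403 listed) higher (14.4%) and 46 lower (15.1%), with a median of -0.05, which on the scale as deposited became 109 and 26. RAP1GAP (ENSDARG00000056554), which switches off the GTPase Rap1, had 0.57, 0.88, 0.47 and 0.04 TPM in the wt1a-low and 16.3, 48.8, 20.3 and 36.97 in the wt1a-high libraries. The Ras-related genes rasd1 and rasl11a had 0 to 2.66 and 0 to 5.42 against 18.9 to 58.01 and 25.7 to 58.9 TPM, and ARHGEF10L (ENSDARG00000074244), an exchange factor for small GTPases, 0.88 to 1.65 against 30.4 to 35.96. Lower were ptprb, the endothelial receptor phosphatase, rasip1, a Ras-interacting protein of vessels, arhgap29a, a GTPase-activating protein, and RERG, a Ras-related protein. Their wt1a-low values were 27.00 to 46.7, 10.9 to 31.3, 16.5 to 34.2 and 11.9 to 30.8 TPM, and their wt1a-high values 0.10 to 3.59, 0.78 to 1.33, 0.03 to 2.28 and 0 to 8.60. Endothelial markers were lower in the same libraries.

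Cell cycle and growth arrest genes were called higher in 8 of 80 tested (10%; 106 listed) and lower in 7 (8.75%), at a median of -0.03. The higher share was near the 8.63% of all genes, of which 12.2% were lower. These list counts became 32 higher and 2 lower with the TPM as deposited. PHLDA2 (ENSDARG00000042874), a small PH-domain protein that limits growth of the placenta in mammals, had 95.9, 101, 113 and 106 TPM in the wt1a-low and 1828, 1266, 942 and 1014 in the wt1a-high libraries, a difference of 2.47. The cyclin gene CCND2 (ENSDARG00000070408), the anti-apoptotic gene bcl2a and PHLDA3 had 1.82 to 3.41, 3.37 to 7.5 and 0.80 to 5.48 TPM against 7.68 to 39.1, 22.3 to 45.8 and 11.99 to 18.4. BNIP3L (ENSDARG00000028067), a receptor for the removal of mitochondria, and the kinase gene PLK2 (ENSDARG00000090752) had 54.3 to 102 and 5.92 to 13.9 against 19.6 to 39.2 and 1.07 to 4.35. The calls of CCNG1 and cdkn1cb, at -1.77 and -1.45, were lost with the TPM as deposited.

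Secreted proteases and their inhibitors outside the matrix metalloproteinases were called higher in 19 of 68 tested (27.9%; 125 listed) and lower in 10 (14.7%), at a median of 0.23. On the scale as deposited 38 were called higher and 4 lower. ADAMTSL3 (ENSDARG00000027903), a matrix protein related to the ADAMTS proteases, had 3.12, 4.58, 3.30 and 4.11 TPM in the wt1a-low and 106, 99.5, 61.6 and 90.3 in the wt1a-high libraries. The proteases ADAMTS7 and ADAMTS8 (ENSDARG00000058252) had 1.74 to 3.57 and 1.34 to 2.59 against 31.7 to 65.6 and 31.03 to 39.8 TPM, and PLAT, the tissue plasminogen activator, 0.71 to 3.04 against 26.7 to 73.2. ECE1 and ECE2, which cleave endothelin precursors, had 18.3 to 37.4 and 42.4 to 78.8 against 1.77 to 8.45 and 15.1 to 41.9 TPM, and the metalloprotease gene ADAM12 6.14 to 12.7 against 0.76 to 4.97. The calls of ECE2 and of the cathepsin gene CTSZ were lost with the TPM as deposited.

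Of the 12 genes with the largest differences on the wt1a-high side outside the lists, TCF21 is given above. wu:fj16a03 (ENSDARG00000100952), whose product is not described in the gene name table, had 13.9, 2.67, 4.33 and 16.5 TPM in the wt1a-low and 2074, 387, 476 and 427 in the wt1a-high libraries, a difference of 5.23. DPT, mfap5, hapln1a, col18a1b, col18a1a, EDIL3 (ENSDARG00000093413) and FN1 (ENSDARG00000019815), whose products are found in the matrix, had differences of 4.62, 4.55, 4.45, 4.45, 4.25, 4.37 and 4.58. DPT and mfap5 are among the fibroblast markers, of which 10 of 11 were higher in the same libraries. FSTL3, a secreted antagonist of activin, had 6.78, 1.57, 2.88 and 1.71 TPM against 204, 188, 133 and 42.9, and ADD3 (ENSDARG00000056250), an adducin of the membrane skeleton, 0.13 to 1.14 against 27.6 to 72.6. CPLX3 (ENSDARG00000089486), a complexin that controls vesicle fusion in neurons, was listed at 0 in all 4 wt1a-low libraries and at 49.1, 27.7, 12.4 and 36.7 TPM in the wt1a-high libraries.

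The largest differences on the wt1a-low side outside the lists included globin genes, namely identifiers of HBE1, and hbaa1 and hbaa2. The symbol HBE1 is shared by 5 identifiers, and which globin each of them encodes was not checked. How far reads were divided rightly between similar globin copies was not tested, so the level of each copy is uncertain. hbaa1 had a difference of -7.21 and hbaa2 one of -6.88. f8 (ENSDARG00000101385), coagulation factor VIII, which is made by endothelium, had 725, 630.4, 1242 and 735 TPM in the wt1a-low and 18.5, 32.2, 11.3 and 73.1 in the wt1a-high libraries, and igfbp6b, a binding protein of insulin-like growth factors, 157 to 287 against 2.28 to 26.8. The selectin gene sele (ENSDARG00000009123) had 62.4 to 156 against 2.40 to 8.72 TPM. thpo (ENSDARG00000079158), encoding thrombopoietin, had 25.7, 32.5, 51.5 and 20.01 TPM in the wt1a-low libraries and was listed at 0 in all 4 wt1a-high libraries. The unnamed loci si:ch211-5k11.8, si:ch211-250g4.3 and si:ch211-103n10.5 had 675 to 1309, 56.4 to 141 and 20.9 to 57.5 TPM against 1.54 to 22.4, 0.08 to 1.22 and 0 to 0.16.

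Presence on one side alone was taken as at least 5 TPM in all its libraries and at most 0.1 in all others. Of 13877 identifiers tested, 4 met this on the wt1a-high side and 11 on the wt1a-low side. The 4 and the 11 were looked up after the values were seen. The counts depend on the limit, which NRG1 missed with 0.02 to 0.29 against 13.6 to 28.93 TPM. Depth is unknown, so 0.1 TPM does not tell absent from barely present genes. The 4 were CPLX3, MYADM (ENSDARG00000038709), a myeloid-associated membrane protein with 8.51, 21.1, 14.4 and 14.7 TPM, NPY2R (ENSDARG00000089943), a receptor for neuropeptide Y with 8.93, 5.10, 7.26 and 9.82 TPM, and si:ch73-208g21.1 with 7.36 to 11.3 TPM. Besides pecam1b, thpo, cahz and a globin, the 11 included homer2, a scaffold protein with 5.22 to 18.4 TPM, and fhdc5 with 7.97 to 21.9. A value of 0 in a table without counts can also be an estimate that failed.

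Paralog pairs, taken here as symbols that differ in a trailing a or b alone, were in 5 cases called in opposite directions, and 4 of these pairs had a mean of at least 5 TPM on the higher side for both genes. Many such pairs stem from an ancient genome duplication in fish, but the origin of these was not checked. limch1a and limch1b, related to regulators of actomyosin, had 0.03 to 1.90 and 17.9 to 48.05 TPM in the wt1a-low and 9.63 to 27.2 and 0.26 to 2.75 in the wt1a-high libraries, with differences of 2.81 and -4.58. abi3bpa and abi3bpb, encoding a matrix-associated protein, had 1.48, 5.69, 0.40 and 1.97 and 3.64, 14.7, 5.22 and 18.9 TPM in the wt1a-low and 90.96, 24.6, 16.3 and 14.4 and 2.25, 1.55, 0.44 and 2.16 in the wt1a-high libraries. mmrn2a, of a family of endothelial matrix proteins, had 32.3 to 70.5 against 0.55 to 4.58 TPM, while mmrn2b had 10.98 to 21.9 against 46.4 to 109 and a difference of 1.01, which was no longer called under median-of-ratios scaling or when pool 3's library labelled GFP-negative was left out. Of the cAMP-responsive factors, cremb had 2.42 to 7.94 against 37.6 to 73.9 TPM. crema had 104 to 276 against 116 to 226, values that overlap as deposited, and its call held with scaling alone. The fifth pair, scinla and scinlb, differed by 2.79 and -1.82. Where 2 identifiers share a symbol the same was seen for 9 listed symbols, again counted after the values were seen: CD81, CRIP2, EFNB2, F2RL2, FHL1, NRP2, NTN1, PRKCD and QKI. Of CD81, a tetraspanin, ENSDARG00000036080 had 97.4 to 139.3 TPM in the wt1a-low and 470.1 to 844.9 in the wt1a-high libraries, and ENSDARG00000022437 had 3.64 to 4.80 against 0 to 0.94. Of NRP2, a co-receptor for semaphorins, ENSDARG00000096546 had 0.83 to 2.75 against 14.1 to 26.9 TPM and ENSDARG00000038446 had 3.03 to 6.70 against 0 to 1.37. The second QKI identifier, ENSDARG00000010018, had 40.6 to 61.9 against 27.0 to 68.0 TPM, which overlap as deposited. So do the lower identifiers of F2RL2, with 11.7 to 22.2 against 1.13 to 23.9 TPM, and of PRKCD, with 2.19 to 4.92 against 1.25 to 2.96. Pairs and shared symbols with both copies tested were not counted, so neither number can be given as a share. Of all genes tested 20.9% were called in either direction. How far reads were divided rightly between near-identical copies cannot be seen in the table.

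**Figure D5:**
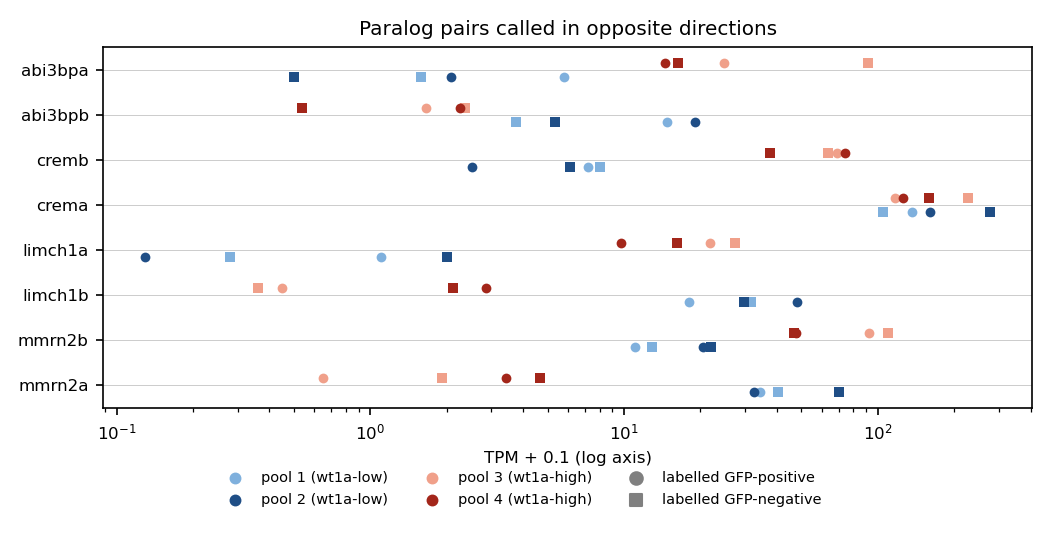
TPM plus 0.1 on a log axis for the 4 paralog pairs called in opposite directions, in each of the 8 libraries, with colours by pool and symbols by labelled sort. Red (wt1a-high) points lie to the right for limch1a and to the left for limch1b, whereas red and blue points of crema share a range.

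The labelled sort was not used to form the sides and could be tested within them. The question was whether cells labelled GFP-positive and GFP-negative differed when only libraries of one side were compared. Limma, with pool as a block and p-values adjusted by Benjamini-Hochberg over all 13877 genes, called 0 genes (0.0%) within the wt1a-high libraries, where the smallest adjusted p was 0.230 and 1205 genes had an unadjusted p under 0.05, with GFP-positive above GFP-negative in 516 and below it in 689. Within the wt1a-low libraries limma called 0 genes (0.0%), with a smallest adjusted p of 0.879 and 455 genes at an unadjusted p under 0.05. For the difference between the 2 sort differences it also called 0 (0.0%), with a smallest adjusted p of 0.873 and 787 genes unadjusted. Within the wt1a-high libraries SEMA3B differed between the labelled sorts by 0.31 ± 0.39 (SE), NRG1 by 0.0015 ± 0.53 (SE), RBP4 by -0.15 ± 0.26 (SE), glis2a by 0.44 ± 0.28 (SE) and PHLDA2 by -0.10 ± 0.22 (SE) on the log2 scale. Among the genes named above the differences of largest size in these libraries were those of SLCO1C1 at -2.29 ± 0.62 (SE), SLC6A4 at 2.20 ± 0.32 (SE), f8 at 1.76 ± 0.40 (SE) and GJA1 at -1.66 ± 0.46 (SE), each with a limma adjusted p of 0.495. SLC6A4 and f8 were higher and SLCO1C1 and GJA1 lower in the GFP-positive library of both wt1a-high pools. SOCS3 (ENSDARG00000025428), looked up after the values were seen, differed by 7.45 ± 1.18 (SE) within the wt1a-low libraries and was not called. Within the wt1a-high libraries it differed by 2.82 ± 1.18 (SE). In the libraries labelled GFP-negative and then GFP-positive it had 0.08 and 84.16 TPM in pool 1 and 0.04 and 175.79 in pool 2. It had 0 and 0.05 TPM in pool 3 and 10.64 and 571.98 in pool 4. Each side holds 2 pools, so 0 calls do not show that the labelled sorts were alike.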

How the data were processed

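Libraries were made, per the labels' protocols, from 0.2 to 0.6 ng of total RNA of sorted ventricular cells with the Ovation Single Cell RNA-Seq System and 2 rounds of amplification, and sequenced as single reads of 60 bases; the protocol text also names a TruSeq kit. CASAVA 1.8.2, cutadapt, RSEM 1.2.25 and the build Zv9 are named in the submitters' processing notes; aligner and annotation are not given in the sources used here. Values were deposited by the authors as TPM with the same total in each library, so the number of reads behind a value and its counting error are unknown.

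Symbols came from a gene name table, which named 25925 of 31388 identifiers; 4151 identifiers share a symbol with another. Sides were set by wt1a alone (above 30 or below 5 TPM). Each library was divided by a trimmed mean of log ratios (30% of ratios and 5% of abundances trimmed at each end) and transformed to log2(scaled TPM + 1). Such a difference understates the change of low genes. Of 2580 entries in 19 gene lists 2403 matched the table. Some lists also hold genes beside the class that names them, such as FHL1, RGS4, ATP1B1 and angptl2a. Members and lists were chosen with earlier results of these data known. The genes named were, per list and direction, up to 4 called genes with the largest difference and a mean of at least 5 TPM on the higher side, the 12 largest per direction outside the lists at 20 TPM or more, opposite paralog pairs, and wt1a, wt1b and TCF21; others are said to be chosen after their values were seen. The genes named without values in the glycolysis and semaphorin accounts, and the second copies of shared symbols, were also chosen afterwards.

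The labelled sort was tested with limma 3.58.1 (R 4.3.3), with a variance trend and pool as block, since the study's design pairs the sorts within a pool. Deviations of same-numbered libraries correlated at 0.022 between the sorts on the wt1a-high side and 0.0079 on the wt1a-low side. Alternatives were other scalings, filters, pseudocounts and limits, no covariate, no block, no variance trend, and leaving out each pool or library. Tables were handled with Python 3.11.15 and pandas 2.3.3.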

Additional observations from a re-analysis of the deposited data

Results flagged for a closer look

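For each of the 177 named genes the 4 libraries of each side were searched for a library that stands apart from the other 3 on the log2 scale of scaled TPM by Dixon's ratio at its 95% critical value. This held in 37 of 354 groups. The critical value flags about 1 in 20 groups of independent, normally spread values. Here libraries share hearts in pairs, and beside 3 zeros any other value is flagged, so the count is not set against that rate. The values below are TPM of the library that stood apart; no explanation was tested.

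In the wt1a-low libraries, the library labelled GFP-positive of pool 1 stood apart most often. It was high for globin genes and a neighbour in level, with 3731 TPM for HBE1 (ENSDARG00000089087), 1458 for hbaa1 and 1309 for si:ch211-5k11.8, and for cahz with 25.6. It was also high for SLC7A5 (1.11), angptl2a (0.71) and cspg5a (0.34), and low for SPOCK3 (159.7), cdkn1cb (17.1) and ARHGEF10L (0.88). The library labelled GFP-negative of pool 1 was high for ATP1B1 (343) and tead1a (9.63) and low for pkd1a (6.77) and IL17RD (listed at 0). The library labelled GFP-negative of pool 2 was high for f8 (1242), ptprb (46.7) and ITGB6 (0.17) and low for CLU (9.25). The library labelled GFP-positive of pool 2 was low for ADGRL4 (8.88) and NR1I2 (4.64).

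In the wt1a-high libraries, the library labelled GFP-negative of pool 3 was high for abi3bpa (90.96), si:ch211-5k11.8 (22.4), IHH (7.38), ERBB4 (3.43), GPRC5C (2.51) and si:ch211-250g4.3 (1.22). After scaling it was low for col18a1b (311) and nr1d2a (96.8). The library labelled GFP-positive of pool 3 was low for kcnk1a (0.55) and alone above 0 for AQP1 (0.26) and cahz (0.07). The library labelled GFP-negative of pool 4 was low for raraa (8.98). The library labelled GFP-positive of pool 4 was high for igfbp6b (26.8), PHLDA3 (18.4) and EPHB2 (12.9) and low for FSTL3 (42.9) and limch1a (9.63).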

How the results depend on the processing

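The count of genes called between the sides was 2894, and it became 4895 with the TPM as deposited, 1781 with a pseudocount of 5 and 1351 with a log2 limit of 2. For genes called higher these settings gave 4088, 663 and 428 in place of 1197, and for genes called lower 807, 1118 and 923 in place of 1697. Under the remaining scalings, filters, pseudocount and covariate settings 916 to 1335 were called higher and 1142 to 1952 lower. Leaving out a pool or a library gave 3096 to 3936 calls, 1298 to 1675 higher and 1789 to 2261 lower; fewer libraries per side make separate ranges easier to reach. No named gene changed direction in the 20 settings, among them the 5 TPM filter, which kept 159 of the 177, and of 177 named genes 161 were still called with the TPM as deposited and 160 with a pseudocount of 5. The named genes were called genes, mostly those with the largest differences, so their unchanged direction was largely set by that choice. Dropping the covariate changes no difference, because each side holds both labelled sorts in equal number. Of the 19 lists, 9 had a median below 0 with scaling and none with the TPM as deposited.

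For the labelled sort, limma without the replicate block called 0 genes on each side and 0 for the difference, with 1196, 424 and 745 genes at an unadjusted p under 0.05. Leaving out a pool or library gave 0 to 1 calls in each comparison. The single calls were ENSDARG00000080329, an unnamed gene listed at 0 in 2 of 4 wt1a-high libraries, lower in the GFP-positive library without pool 3 and higher without pool 4, also for the difference without pool 4, and SOCS3 within the wt1a-low libraries without pool 3. Where 1 library per sort remained on a side, it was assumed to vary like the others. The cause of these changes was not tested. Depth is unknown, so the noise of low values cannot be given.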
